A study of Mus musculus with 48 samples.

Results

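Glutathione transferases and the enzymes of antioxidant defence were followed in the liver of diet-induced obese mice through 10 genes. They were the transferases Gsta2, Gsta4, Gstt3, Gstt1 and Gstm3, the quinone reductase Nqo1, the glutathione synthesis genes Gclc and Gclm, the sulfiredoxin Srxn1 and the flavin monooxygenase Fmo5. Members were named by gene symbol with earlier results of these data known. Their counts below are therefore no test against the shares over all probe sets, which are given as a scale. All probe sets of the members were taken, which gave 18 with 1 gene symbol among the 45037 tested. Gsta2 shares 1 more with Gsta1 and Gm3776. Every mouse was a male C57BL/6J that had eaten the L-P/C-HF diet (15% of energy from protein, 30% from carbohydrate, 55% from fat) for 10 weeks and had been selected for a high glucose response. The H-P/C-HF mice were then moved to a diet with 30% of energy from protein, 15% from carbohydrate and the same share of fat, and the L-P/C-HF mice stayed on theirs. Livers were taken 2 days or 4 weeks later, which gave 4 groups of 12 mice with 1 Affymetrix expression array each: H-P/C-HF 2-d, L-P/C-HF 2-d, H-P/C-HF 4-wk and L-P/C-HF 4-wk. The sample labels HPHC and HFHC were read as H-P/C-HF and as L-P/C-HF. Only the 4-wk mice had a further glucose tolerance test, after an overnight fast, before tissue collection. Duration, age, day of tissue collection and this test cannot be told apart.

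Array B25 of the H-P/C-HF 2-d group failed the quality tests of the study and was left out, so that 47 arrays were used, 11 of them in that group. Array medians lay between 6.73 and 6.91, and the 10 measured hepatocyte markers had mean levels between 12.48 and 14.59. With B25, the arrays A01, A09 and A24 (A24 in the 4-wk and the others in the 2-d group given L-P/C-HF) correlated least with the other arrays, and results whose call or unadjusted p under 0.05 rests on them are also given without them.

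Glutathione is the main soluble thiol of the hepatocyte, and glutamate-cysteine ligase carries out the rate-limiting step of its synthesis. Glutathione transferases join it to reactive electrophiles, among them products of lipid peroxidation. Many of these genes are induced through the transcription factor NFE2L2 (NRF2), which binds antioxidant response elements together with small MAF proteins and is held back by KEAP1, and several transferases also respond to the nuclear receptors CAR and PXR.

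RefSeq promoter windows (build GRCm38.p6) were found for 8 of the 10 members, Gsta4 and Gclc being the others. The 250 bases before each start were searched on both strands for the core of the antioxidant response element, spelled TGACNNNGC or TGAGNNNGC, which 23% of 32851 windows hold. Srxn1, Gclm and Gstt1 held a match, and these letters were not in the windows of Gsta2, Gstt3, Gstm3, Nqo1 and Fmo5. Srxn1 held 2 matches, 1 of which overlaps the related motif TGANTCA, held by 6.7% of windows. A match describes letters and not a bound site. Bases outside these 250 were not searched, so a window without a match does not show that its gene lacks the element. Sequences are printed for Srxn1, which had the most matches, and for Gsta2 and Gstt3, which had the largest diet differences among the members. Each runs 5′ to 3′ on the strand of its gene with matched letters in capitals, and covers only bases outside the annotated gene, 203 in the case of Gsta2. The windows are chr2:152105274-152105523 (plus strand) for Srxn1, chr9:78347193-78347395 (minus strand) for Gsta2 and chr10:75781423-75781672 (minus strand) for Gstt3.
Srxn1: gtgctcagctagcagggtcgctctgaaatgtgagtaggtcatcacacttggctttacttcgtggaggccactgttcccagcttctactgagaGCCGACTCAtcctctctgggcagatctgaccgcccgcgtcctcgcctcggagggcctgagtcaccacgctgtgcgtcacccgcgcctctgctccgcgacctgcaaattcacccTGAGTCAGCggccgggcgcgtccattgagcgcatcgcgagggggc
Gsta2: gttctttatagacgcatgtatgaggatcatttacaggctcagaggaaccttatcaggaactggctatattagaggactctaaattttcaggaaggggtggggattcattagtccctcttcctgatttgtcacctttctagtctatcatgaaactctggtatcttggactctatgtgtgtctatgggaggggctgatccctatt
Gstt3: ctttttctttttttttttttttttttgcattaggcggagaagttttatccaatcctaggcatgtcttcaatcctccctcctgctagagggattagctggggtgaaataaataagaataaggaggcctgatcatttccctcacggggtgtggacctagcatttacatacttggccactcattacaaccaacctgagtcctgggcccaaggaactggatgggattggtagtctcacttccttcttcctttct

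Levels are log2 values, so that 1 unit is a doubling, and the level of one probe set cannot be set against that of another. The words rose, fell and changed are kept for probe sets whose adjusted p in limma, over all 45037 probe sets of a comparison, was under 0.05. In bulk liver, fewer cells of a type and less RNA per cell cannot be told apart.

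The first comparison asked whether these genes differ between the diets. None of the members changed with diet, and the alpha class transferase Gsta2 and the theta class transferase Gstt3 had the largest differences over both durations among probe sets of a single gene, both toward higher values with H-P/C-HF. After 2-d, 0 of 18 member probe sets passed limma (0.0133% of all probe sets), and 5 had an unadjusted p under 0.05, all of them higher, against 3.52% of all probe sets in either direction and 1.90% higher. They were those of Gsta2, Gsta4 and Gstt3 and a pair for Fmo5, which share their target. This count rests on few arrays, since it was 2 without A09 (Gstt3 and Fmo5), 1 without A01, A09 and A24 (Gstt3) and 2 with B25 included (Gsta2 and Gstt3), and in each of the last 2 cases 1 probe set of Gclm was lower. After 4-wk, 0 of 18 passed limma (0% of all), and 3 had an unadjusted p under 0.05 (2.76% of all), 2 higher (0.957%) and 1 lower (1.80%). With diet averaged over both durations, 0 of 18 passed limma (0.0511% of all), and 3 had an unadjusted p under 0.05, those of Gsta2, Gsta4 and Gstt3, all higher (4.56% of all in either direction, 1.99% higher), or 2 without A09. An ordinary linear model also gave 0 in each of these comparisons. The paper, by its own test and threshold, listed several genes of these families among those that differed between the diets. They were FMO5 at 4-wk, FMO2 and GSTT2/GSTT2B at 2-d, and GSTA5 at both durations. Gsta5 is not a member and had no matched probe set of its own here. The median log2 difference over the 18 probe sets was 0.03 after 2-d and 0.03 after 4-wk, beside 0.01 and -0.01 over all probe sets.

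**Figure D1:**
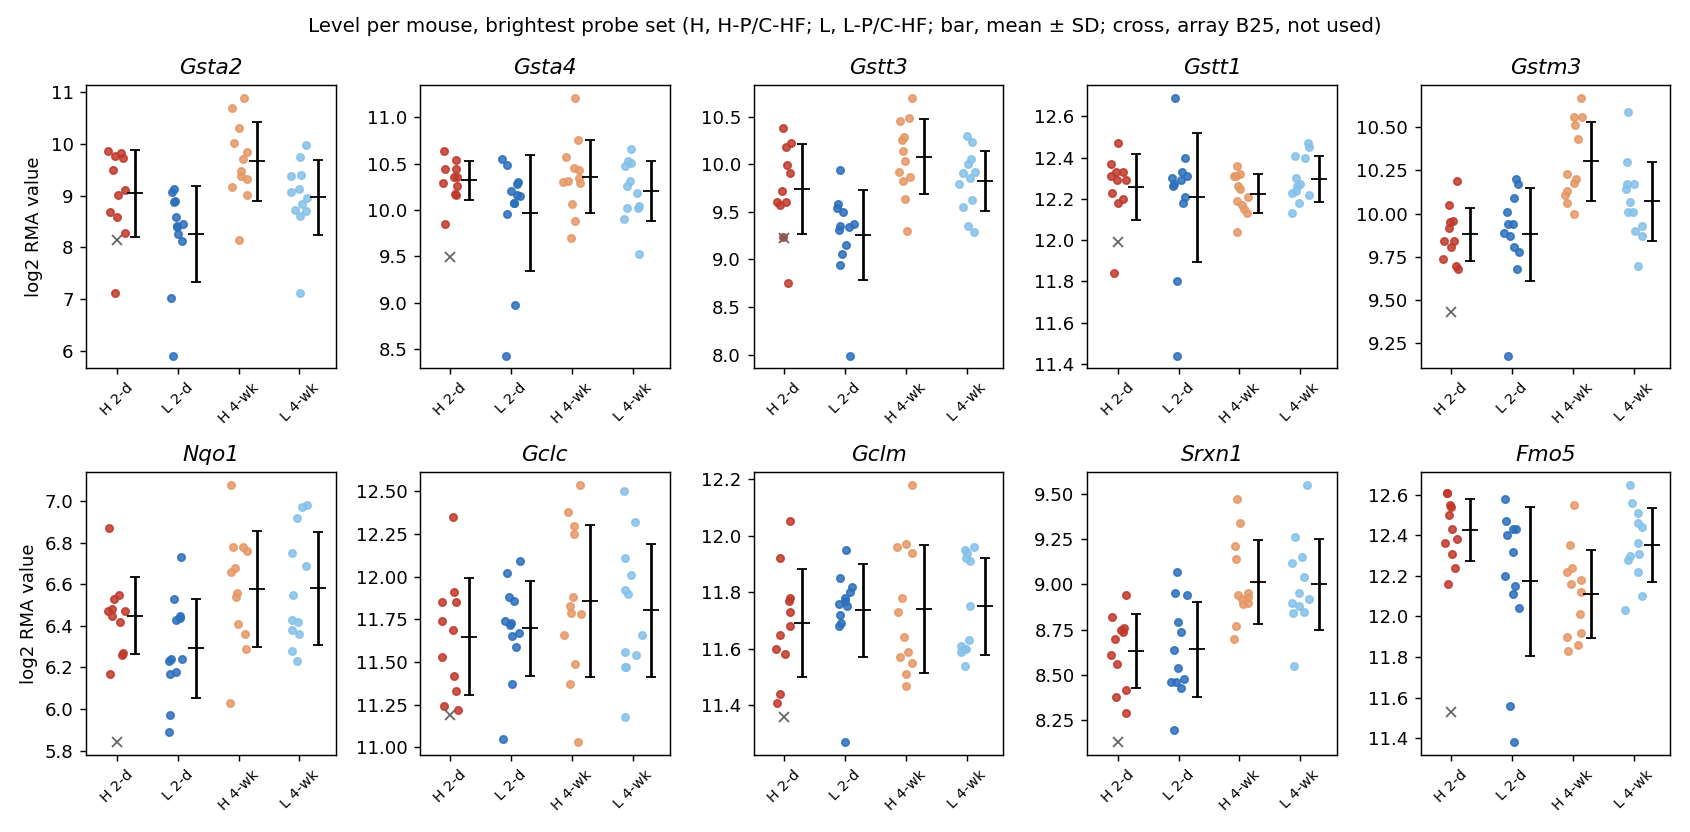
Log2 value (y axis) of the brightest probe set of each of the 10 members in every mouse, by group (x axis), with the mean and SD; a cross marks B25, which was not used. The diets overlap in each panel, and Gsta2 and Gstt3 lie higher on average with H-P/C-HF at both durations.

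Gsta2, which conjugates glutathione to electrophiles in hepatocytes, had values of 7.11, 9.11 and 9.86 (lowest, median and highest) in the 2-d H-P/C-HF mice, against 5.91, 8.44 and 9.12 in the 2-d L-P/C-HF mice. In the 4-wk H-P/C-HF mice they were 8.14, 9.59 and 10.89, against 7.11, 9.01 and 9.97 in the 4-wk L-P/C-HF mice. The groups overlapped at both durations, and 9 of 11 H-P/C-HF mice at 2-d and 10 of 12 at 4-wk lay above the median of their L-P/C-HF group. The means were 9.04 ± 0.84 with H-P/C-HF (SD, n = 11) against 8.26 ± 0.93 with L-P/C-HF (SD, n = 12), a log2 difference of 0.78 or 1.72-fold (95% confidence interval 0.14 to 1.42 on the log2 scale, p = 0.0173, adjusted p = 0.9998, limma). At 4-wk they were 9.66 ± 0.76 with H-P/C-HF against 8.97 ± 0.72 with L-P/C-HF (SD, n = 12 each), a difference of 0.69 or 1.62-fold (0.07 to 1.32, p = 0.0303, limma). The diet effect at 4-wk less that at 2-d was -0.09 (-0.98 to 0.80), and neither duration passed the adjustment. Averaged over both durations the difference was 0.74 (standard error 0.22, p = 0.00169, adjusted p = 0.485, limma), and the adjusted p lay between 0.117 and 0.697 over the alternatives. Without A09, the lowest L-P/C-HF mouse at 2-d, the 2-d difference was 0.57 (p = 0.0566, limma).

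The probe set that Gsta2 shares with Gsta1 and Gm3776 cannot tell these alpha class genes apart. It was 0.70 higher at 2-d (p = 0.0179, limma) and 0.72 higher at 4-wk (p = 0.0131, limma). At 2-d it was 0.57 without A09 (p = 0.0485, limma) and 0.50 without A01, A09 and A24 (p = 0.0908, limma).

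Gsta4, known for conjugating the lipid peroxidation product 4-hydroxynonenal, had values of 9.85, 10.36 and 10.64 (lowest, median and highest) in the 2-d H-P/C-HF mice, against 8.43, 10.16 and 10.55 in the 2-d L-P/C-HF mice. The groups overlapped, and the wider spread lay in the L-P/C-HF group, where A09 was lowest. The difference was 0.35 at 2-d (0.02 to 0.68, p = 0.0408, limma) and 0.16 at 4-wk (-0.17 to 0.48, p = 0.339, limma). At 2-d it was 0.21 without A09 (p = 0.143, limma). With A09 kept, a permutation test over mice gave p = 0.0865 for Gsta4 at 2-d. The same permutation test gave p = 0.0440 for Gsta2, 0.0199 for Gstt3, and 0.0382 and 0.0411 for the Fmo5 pair.

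The theta class genes Gstt3 and Gstt1 are neighbours, with 0 annotated genes between them. Gstt3 had values of 8.75, 9.72 and 10.38 (lowest, median and highest) in the 2-d H-P/C-HF mice, against 7.99, 9.35 and 9.94 in the 2-d L-P/C-HF mice. In the 4-wk H-P/C-HF mice they were 9.30, 10.09 and 10.70, against 9.29, 9.89 and 10.30 in the 4-wk L-P/C-HF mice. The groups overlapped, with 9 of 11 H-P/C-HF mice at 2-d and 8 of 12 at 4-wk above the median of their L-P/C-HF group. The difference was 0.49 or 1.40-fold at 2-d (0.15 to 0.82 on the log2 scale, p = 0.00496, adjusted p = 0.9998, limma) and 0.25 at 4-wk (-0.07 to 0.58, p = 0.123, limma). Averaged over both durations it was 0.37 (standard error 0.12, p = 0.00241, adjusted p = 0.596, limma). Its neighbour Gstt1 had values of 11.84, 12.29 and 12.47 in the 2-d H-P/C-HF mice, against 11.44, 12.28 and 12.69 in the 2-d L-P/C-HF mice. The Gstt1 difference was 0.05 at 2-d (-0.11 to 0.21) and -0.07 at 4-wk (-0.23 to 0.08), and neither had an unadjusted p under 0.05.

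Gstm3, of the mu class, has 2 probe sets. On the brighter, 1427474_s_at, values were 10.00, 10.22 and 10.67 (lowest, median and highest) in the 4-wk H-P/C-HF mice, against 9.70, 10.04 and 10.59 in the 4-wk L-P/C-HF mice. The groups overlapped, with 11 of 12 H-P/C-HF mice above the median of the L-P/C-HF group. The difference was 0.23 at 4-wk (0.05 to 0.41, p = 0.0135, limma) and 0.00 at 2-d (-0.19 to 0.19). On the dimmer, 1427473_at, it was 0.16 at 4-wk (p = 0.213, limma) and 0.07 at 2-d (p = 0.583, limma).

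For Nqo1, Gclc, Gclm and Srxn1 the log2 difference between the diets was at most 0.20 in size on any probe set. Nqo1, which reduces quinones, had values of 6.17, 6.47 and 6.87 (lowest, median and highest) in the 2-d H-P/C-HF mice, against 5.89, 6.24 and 6.73 in the 2-d L-P/C-HF mice, and differed by 0.16 (-0.04 to 0.36). At 4-wk it differed by 0.00 (-0.20 to 0.19). The mean Nqo1 level, 6.48, was the lowest of the members and lay below the lowest array median of 6.73, so its signal was weak. Gclc, the catalytic subunit of glutamate-cysteine ligase, had values of 11.22, 11.69 and 12.35 on its brighter probe set in the 2-d H-P/C-HF mice, against 11.05, 11.73 and 12.09 in the 2-d L-P/C-HF mice, and differed by -0.05 (-0.34 to 0.24). At 4-wk the Gclc difference was 0.06 (-0.23 to 0.34). Gclm, the modifier subunit of the same enzyme, differed on its brighter probe set by -0.04 at 2-d (-0.20 to 0.11) and by -0.01 at 4-wk (-0.16 to 0.14), and on its dimmer by -0.20 at 2-d (-0.42 to 0.01) and 0.00 at 4-wk (-0.21 to 0.22). Srxn1, which repairs overoxidised peroxiredoxins, has 4 probe sets, whose differences ran between -0.04 and 0.01 at 2-d and between -0.04 and 0.15 at 4-wk. No probe set of these 4 genes had an unadjusted p under 0.05 in either diet comparison, and intervals of this width do not show that the diets act alike on them.

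**Figure D2:**
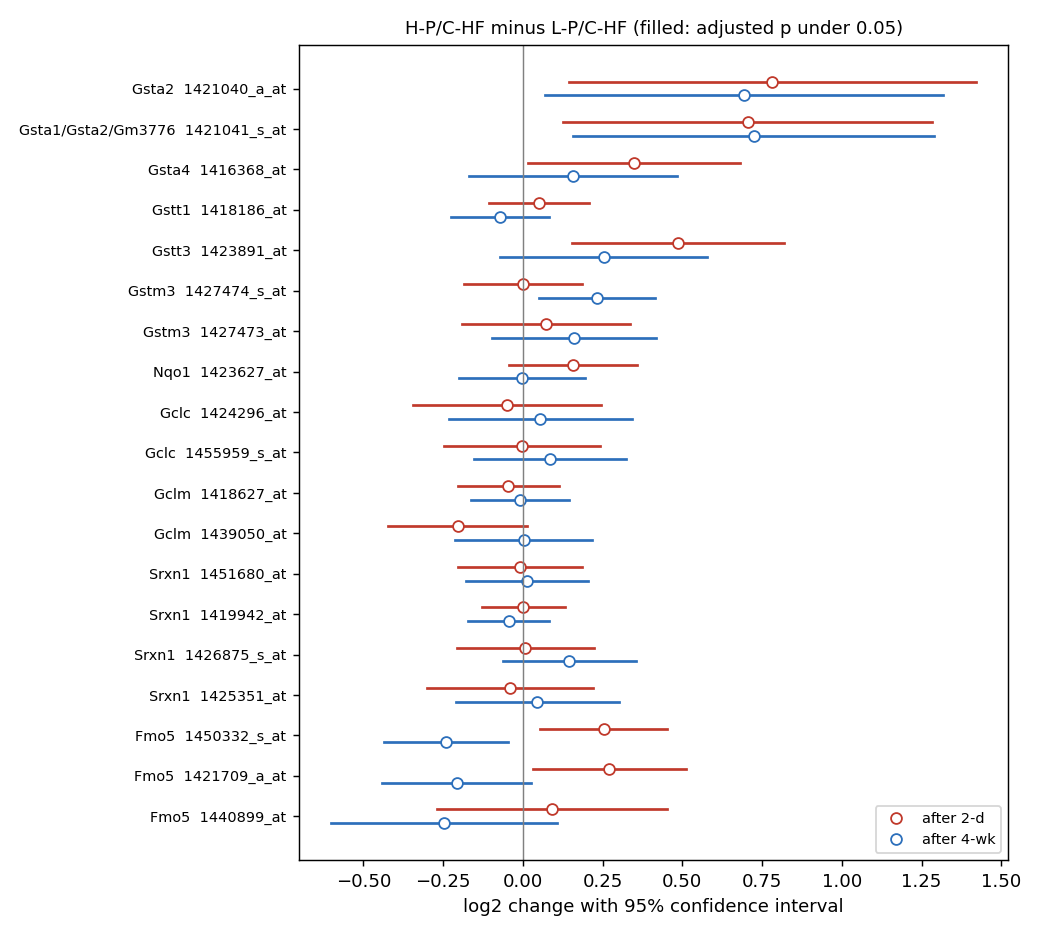
Log2 difference between the diets, H-P/C-HF over L-P/C-HF (x axis, point and 95% confidence interval from limma), for each member probe set (y axis) at 2-d (red) and 4-wk (blue); open points did not pass the adjustment. All points are open, Gsta2 lies at 0.78 and 0.69, and Fmo5 lies on opposite sides of 0 at the 2 durations.

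Fmo5, a flavin monooxygenase of liver that can act as a Baeyer-Villiger oxidase, stood on opposite sides of 0 at the 2 durations. On its brightest probe set, 1450332_s_at, values were 11.83, 12.14 and 12.55 (lowest, median and highest) in the 4-wk H-P/C-HF mice, against 12.03, 12.34 and 12.65 in the 4-wk L-P/C-HF mice. In the 2-d H-P/C-HF mice they were 12.16, 12.43 and 12.61, against 11.38, 12.26 and 12.58 in the 2-d L-P/C-HF mice. The groups overlapped, with 10 of 12 4-wk mice given H-P/C-HF below the median given L-P/C-HF and 9 of 11 above it at 2-d. The difference was -0.24 at 4-wk (-0.43 to -0.05, p = 0.0164, limma) and 0.25 at 2-d (0.06 to 0.45, p = 0.0132, limma). The diet effect at 4-wk less that at 2-d was -0.49 (standard error 0.14, -0.77 to -0.22, p = 0.000792, adjusted p = 0.9999, limma). In this comparison of the 2 diet effects, 0 of 18 member probe sets passed limma (0% of all) and 2, both of Fmo5 and both lower, had an unadjusted p under 0.05 (1.63% of all in either direction, 1.11% lower). The other Fmo5 probe sets gave -0.48 (1421709_a_at, p = 0.00587, limma) and -0.34 (1440899_at, p = 0.185, limma). B25 was at 11.53, below the other 11 mice of its group, and with it included the 2-d difference was 0.18 (p = 0.103, limma), 0.17 with A01, A09 and A24 also left out instead (p = 0.0646, limma), and the difference of the diet effects with B25 was -0.42 (p = 0.00828, limma).

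Other genes of glutathione use were read from lists, with diet averaged over both durations. Of all 18193 genes with a probe set of their own, 45.9% had a positive difference in that comparison (median -0.01). Of 19 measured other glutathione transferases, 14 had a positive difference (median 0.02) and 0 passed limma, where the unadjusted p was under 0.05 for 5 that were higher and 0 that were lower. The smallest p belonged to the kappa class gene Gstk1, at 0.23 (p = 0.000150, adjusted p = 0.154, limma), and to the mu class gene Gstm7, at 0.25 (p = 0.000348, adjusted p = 0.238, limma). Gstk1 passed after cyclic loess (adjusted p = 0.000501, limma) and with array weights (adjusted p = 0.0374, limma). Of 23 measured genes of glutathione synthesis, use and breakdown, 11 had a positive difference (median -0.01) and 1 rose. It was Cth, cystathionine gamma-lyase, which makes cysteine for glutathione. Cth averaged 12.47 ± 0.20 with H-P/C-HF at 2-d (SD, n = 11) against 12.07 ± 0.31 with L-P/C-HF (SD, n = 12), and 12.35 ± 0.27 with H-P/C-HF at 4-wk against 12.10 ± 0.19 with L-P/C-HF (SD, n = 12 each). Over both durations it rose by 0.33 (adjusted p = 0.0434, limma), but not with B25 included (adjusted p = 0.0651, limma) or without A01, A09 and A24 (adjusted p = 0.0612, limma). Over all alternatives the adjusted p of Cth in limma lay between 0.000921 and 0.0895. Cbs, the enzyme before Cth, was 0.21 higher (adjusted p = 0.156, limma).

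Of 11 measured NFE2L2 regulators, 5 had a positive difference over both durations (median -0.04) and 0 passed limma, where 0 were higher and 1 was lower by the unadjusted p, and 2 were lower by it at 4-wk. Nfe2l2 differed by -0.07 (p = 0.362, limma) and Keap1 by 0.04 (p = 0.488, limma) over both durations. Nr1i3, which encodes CAR, differed by 0.02 and Nr1i2, which encodes PXR, by -0.07. Of 23 measured other NFE2L2 targets, 7 had a positive difference (median -0.03) and 0 passed limma, where 1 was higher and 4 were lower at an unadjusted p under 0.05. The smallest p belonged to Blvrb, biliverdin reductase B, at -0.19 (p = 0.00205, limma), and Osgin1 at -0.39 (p = 0.00386, limma). By the unadjusted p, 1 of these targets was higher and 6 were lower at 2-d, and 0 and 0 at 4-wk. Over all probe sets that p was under 0.05, in either direction, for 4.56% on average, 3.52% at 2-d and 2.76% at 4-wk. The paper predicted NR1I3 and AHR to be active at 2-d and NR1I2 to be inhibited at 4-wk, and such activity was not tested here. Of 18 measured genes of CAR, PXR and their other targets, 7 had a positive difference over both durations (median -0.02), 11 at 2-d (median 0.04) and 6 at 4-wk (median -0.04). Over both durations 0 passed limma, with 1 higher and 0 lower by the unadjusted p. Of 9 measured genes of AHR and its other targets, 5 had a positive difference over both durations, 6 at 2-d and 4 at 4-wk. Over both durations 0 of them passed limma, with an unadjusted p under 0.05 and a higher value in 1. Of 17 measured thioredoxin, peroxiredoxin, superoxide dismutase and catalase genes, 7 had a positive difference and 0 passed limma, with 1 lower at an unadjusted p under 0.05. Of 3 other flavin monooxygenases, 3 had a positive difference with a median of 0.04, and 0 passed limma, with 0 at an unadjusted p under 0.05. Beside these values, 11 of 12 Kupffer cell and macrophage markers had a negative difference at 4-wk (median -0.33) and 12 of 12 at 2-d (median -0.13), of which 0 passed limma at either duration, and 5 at 4-wk and 0 at 2-d had an unadjusted p under 0.05. Their part in the differences of the members was not tested.

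Members varied together from mouse to mouse. After removal of group means, Pearson's r was computed for the 45 pairs of members over 47 mice, with 100000 permutations of mice within groups and Benjamini-Hochberg adjustment over the pairs. All 45 values of r were positive, with a median of 0.53 and a range between 0.07 and 0.84, and 33 pairs had an adjusted permutation p under 0.05 (34 by Spearman's rho). After cyclic loess the pairs did not all stay positive. Srxn1 was then at -0.27 with Gclc, -0.18 with Gclm, -0.18 with Gstt1, -0.13 with Gsta4, -0.08 with Gstm3 and -0.01 with Gsta2. Gstt1 was at -0.13 with Nqo1 and -0.04 with Gclm, and Gstt3 at -0.08 with Gclm and -0.03 with Gclc. Fmo5 was at -0.08 with Gclc and -0.01 with Nqo1. Among these, Nqo1 with Gstt1 and Nqo1 with Fmo5 had an adjusted permutation p of r under 0.05 in the deposited values. Gsta2 with Gsta4 had the highest r of the pairs, 0.84 (rho 0.71, permutation p = 1e-05 for each, the smallest that the permutations can give, adjusted p = 5e-05 for r), and 0.77 without the 2 mice farthest from the Gsta2 median. The permutation p was also 1e-05 for both measures in the 4 pairs that follow. Gsta4 with Gstm3 had r of 0.76 (rho 0.69) and 0.72 without the 2 farthest mice. Gsta2 with Gstt3 had r of 0.76 (rho 0.65) and 0.68 without the 2 farthest mice. Gclc with Gclm, the subunits of one enzyme, had r of 0.75 (rho 0.72) and 0.71 without the 2 farthest mice. The neighbours Gstt1 and Gstt3 had r of 0.74 (rho 0.78) and 0.65 without the 2 farthest mice. Srxn1 had the lowest r of the pairs, 0.07 with Gclc (rho 0.05, permutation p = 0.662 for r and 0.732 for rho), and its highest, 0.50, with Nqo1 (rho 0.44, adjusted permutation p = 0.000918 for r and 0.00519 for rho). Within the single groups, 33 pairs were positive in all 4, and the pairs with an adjusted permutation p under 0.05 numbered 1 in H-P/C-HF 2-d, 20 in L-P/C-HF 2-d, 24 in H-P/C-HF 4-wk and 2 in L-P/C-HF 4-wk mice. Without A01, A09 and A24 the number over all groups was 40, and after cyclic loess it was 21.

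**Figure D3:**
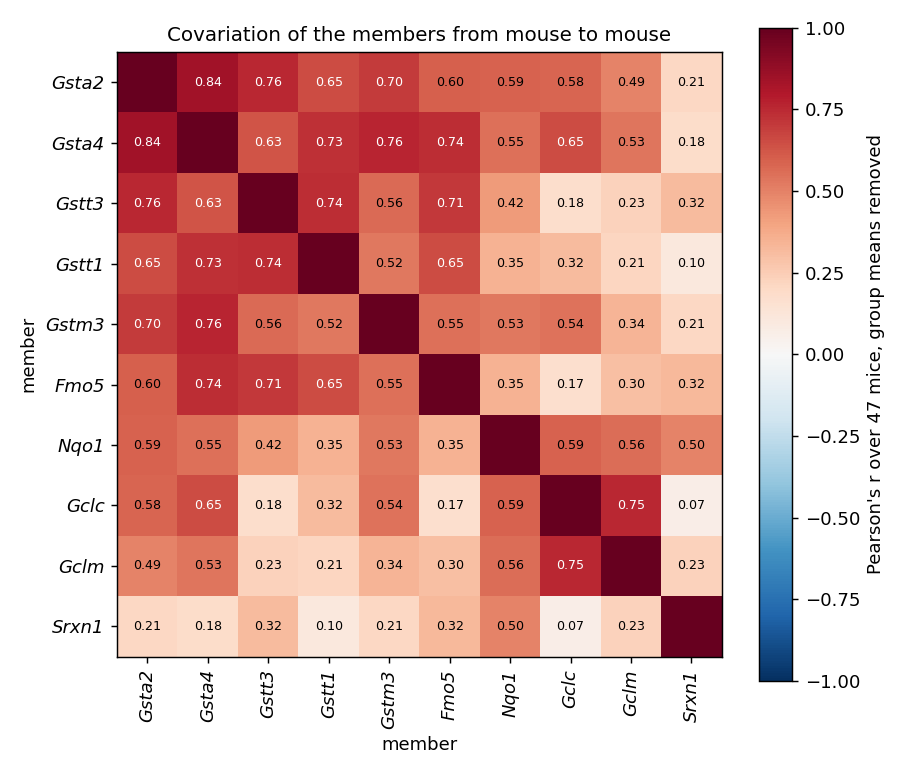
Pearson's r (colour and number) between the brightest probe sets of each pair of members (both axes) over 47 mice after group means were removed. With the deposited log2 values all of them are above 0, Gsta2 with Gsta4 reaches 0.84, Gclc with Gclm 0.75, and Srxn1 has the lowest values.

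The same mice, named by their array labels, stood at the ends of several members. B31 was lowest of the H-P/C-HF 2-d mice in 6 of 10 members, A09 of the L-P/C-HF 2-d mice in 6, B40 of the H-P/C-HF 4-wk mice in 6 and A15 of the L-P/C-HF 4-wk mice in 4. B47 was highest of the H-P/C-HF 4-wk mice in 8 of 10 members, and A19 of the L-P/C-HF 4-wk mice in 5. Among 18192 other genes, those most like Gsta2 over the 47 mice after removal of group means were Maob, a monoamine oxidase (r = 0.88), Etnppl, an ethanolamine-phosphate phospholyase (r = 0.88), Aox1, an aldehyde oxidase (r = 0.86), Gsta4 (r = 0.84) and 9130409I23Rik (r = 0.83). The median r of all these genes with Gsta2 was 0.04, and 7 exceeded 0.8. Their diet differences did not all run one way. Maob differed by 0.15 at 2-d and 0.06 at 4-wk. Etnppl differed by 0.83 at 2-d and 0.52 at 4-wk. Aox1 differed by -0.18 at 2-d and 0.01 at 4-wk. 9130409I23Rik differed by -0.05 at 2-d and 0.47 at 4-wk.

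**Figure D4:**
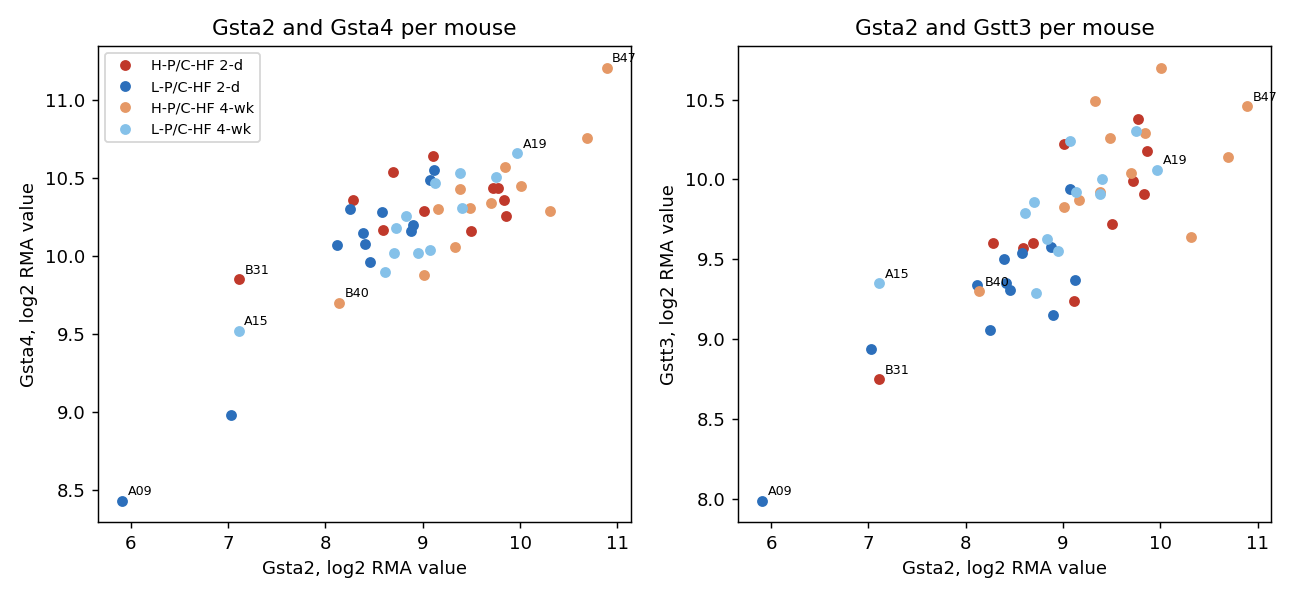
Log2 values per mouse of Gsta2 (x axes) against Gsta4 and against Gstt3 (y axes), coloured by group, with the mice named in the text labelled. A09 has the lowest Gsta2 value, 5.91, and B47 the highest, 10.89.

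The second comparison set 4-wk against 2-d livers within each diet. Gstm3 and Srxn1 rose in both diets, Gstt3 rose with L-P/C-HF and Fmo5 fell with H-P/C-HF. With H-P/C-HF, 5 of 18 member probe sets changed (6.69% of all probe sets), 4 up (4.71% of all) and 1 down (1.98%). With L-P/C-HF, 3 changed (6.87% of all), all up (5.39%). Whether a change differed between the diets is the comparison of diet effects given above for Fmo5, in which 0 of 18 passed.

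Gstm3 on 1427473_at had values of 7.26, 7.66 and 8.44 (lowest, median and highest) in the 4-wk H-P/C-HF mice, against 7.05, 7.22 and 7.69 in the 2-d H-P/C-HF mice. With L-P/C-HF they were 7.36, 7.66 and 8.17 at 4-wk, against 6.27, 7.26 and 7.68 at 2-d. The durations overlapped, but 12 of 12 of the 4-wk mice with H-P/C-HF and 12 of 12 with L-P/C-HF lay above the 2-d median. It rose by 0.55 with H-P/C-HF (adjusted p = 0.00444, limma) and by 0.46 with L-P/C-HF (adjusted p = 0.0168, limma), a call that was lost when A01, A09 and A24 were left out (adjusted p = 0.0595, limma). On 1427474_s_at Gstm3 rose by 0.42 with H-P/C-HF (adjusted p = 0.00187, limma) and was 0.19 higher with L-P/C-HF (adjusted p = 0.250, limma).

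Srxn1 on its brightest probe set, 1451680_at, had values of 8.70, 8.94 and 9.47 (lowest, median and highest) in the 4-wk H-P/C-HF mice, against 8.29, 8.70 and 8.94 in the 2-d H-P/C-HF mice. With L-P/C-HF they were 8.55, 8.94 and 9.55 at 4-wk, against 8.20, 8.59 and 9.07 at 2-d. The durations overlapped in both diets. It rose by 0.38 with H-P/C-HF (adjusted p = 0.00847, limma) and by 0.36 with L-P/C-HF (adjusted p = 0.0112, limma). On 1425351_at Srxn1 rose by 0.46 with H-P/C-HF (adjusted p = 0.0205, limma) and was 0.37 higher with L-P/C-HF (adjusted p = 0.0669, limma). The other 2 probe sets disagreed with these, at -0.01 and 0.11 with H-P/C-HF and at 0.04 and -0.03 with L-P/C-HF.

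Gstt3 rose by 0.57 with L-P/C-HF (adjusted p = 0.0199, limma), though not without A01, A09 and A24 (adjusted p = 0.101, limma), and was 0.34 higher with H-P/C-HF (adjusted p = 0.262, limma). Fmo5 on 1450332_s_at fell by 0.31 with H-P/C-HF (adjusted p = 0.0409, limma), with 11 of 12 of the 4-wk mice below the 2-d median, and was 0.18 higher with L-P/C-HF (adjusted p = 0.346, limma). With B25 included the H-P/C-HF value was -0.24 (adjusted p = 0.191, limma). Gsta2 was 0.62 higher at 4-wk with H-P/C-HF (adjusted p = 0.289, limma) and 0.71 with L-P/C-HF (adjusted p = 0.198, limma). Nqo1 was 0.13 higher with H-P/C-HF (adjusted p = 0.543, limma) and 0.29 with L-P/C-HF (adjusted p = 0.0632, limma). Gsta4, Gstt1, Gclc and Gclm did not pass in either diet.

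RNA quality moved with duration. Transcripts of Gapdh and beta-actin are read near both ends by control probe sets, and the excess of the 3′ over the 5′ signal grows with degradation. It was 0.27 ± 0.11 in the H-P/C-HF 4-wk (SD, n = 12) against 0.48 ± 0.13 in the H-P/C-HF 2-d arrays (SD, n = 11), and 0.24 ± 0.07 in the L-P/C-HF 4-wk against 0.48 ± 0.19 in the L-P/C-HF 2-d arrays (SD, n = 12 each). With this excess as a covariate, 2 of 18 member probe sets changed with H-P/C-HF (622 of all 45037) and 0 with L-P/C-HF (464 of all). Srxn1 on 1451680_at was then at 0.12 with H-P/C-HF (adjusted p = 0.766, limma) and 0.06 with L-P/C-HF (adjusted p = 0.986, limma), and on 1425351_at it was at 0.11 with H-P/C-HF. The other lost calls kept larger values. Gstm3 on 1427473_at was at 0.45 with H-P/C-HF (adjusted p = 0.151, limma) and 0.35 with L-P/C-HF (adjusted p = 0.528, limma), and Gstt3 at 0.41 with L-P/C-HF (adjusted p = 0.592, limma). Gstm3 on 1427474_s_at was at 0.43 with H-P/C-HF (adjusted p = 0.0202, limma) and passed, as did Fmo5 on 1450332_s_at at -0.40.

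Markers of other liver cells moved with duration as well. Of 12 Kupffer cell and macrophage markers, 9 rose with H-P/C-HF (median 0.84) and 11 with L-P/C-HF (median 1.02). Their mean level per mouse spanned 8.14 to 9.69 in H-P/C-HF 4-wk against 8.04 to 8.88 in H-P/C-HF 2-d mice, and 8.79 to 10.19 in L-P/C-HF 4-wk against 7.98 to 9.16 in L-P/C-HF 2-d mice. Of 8 sinusoidal endothelium markers 8 rose with H-P/C-HF and 7 with L-P/C-HF, and of 8 stellate cell markers 4 and 4. The part of these cells in the changes of the members was not tested.

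**Figure D5:**
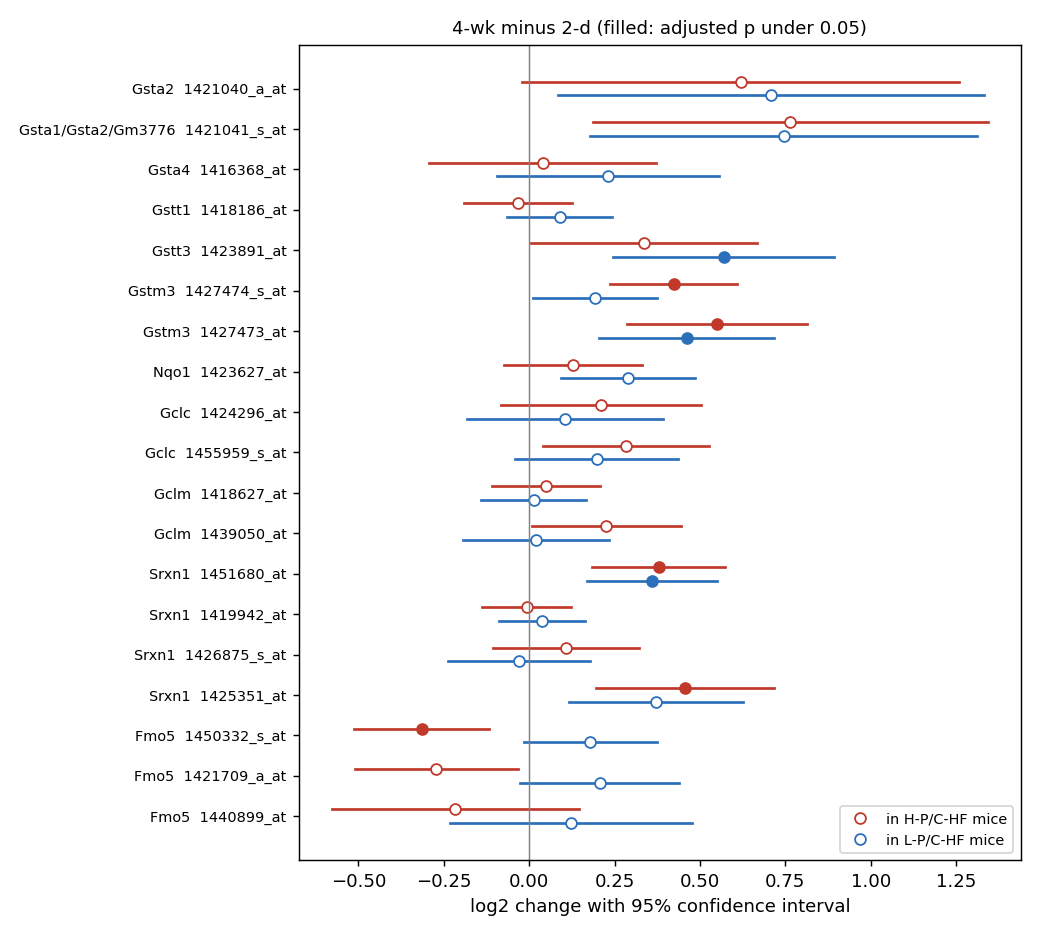
Log2 difference between the durations, 4-wk over 2-d (x axis, point and 95% confidence interval from limma), for each member probe set (y axis) with H-P/C-HF (red) and L-P/C-HF (blue); filled points had an adjusted p under 0.05. Gstm3 and Srxn1 hold most of the filled points, and Fmo5 is the filled point below 0.

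The wider NFE2L2 program was read from the same lists. Of 23 measured other NFE2L2 targets, 7 rose and 0 fell with H-P/C-HF (median 0.22), and 9 rose and 0 fell with L-P/C-HF (median 0.23). Me1, a malic enzyme that makes NADPH, rose by 1.30 with H-P/C-HF (adjusted p = 2.75e-07, limma) and by 0.87 with L-P/C-HF (adjusted p = 0.000189, limma). Hmox1, the inducible heme oxygenase, rose by 0.58 with H-P/C-HF (adjusted p = 0.00484, limma) and by 0.63 with L-P/C-HF (adjusted p = 0.00146, limma), and macrophages also express it. Of 11 NFE2L2 regulators, 2 rose and 2 fell with H-P/C-HF (3 positive, median -0.08). With L-P/C-HF, 1 rose and 1 fell (5 positive, median -0.07). Nfe2l2 rose by 0.38 with H-P/C-HF (adjusted p = 0.0231, limma) and was 0.22 higher with L-P/C-HF (adjusted p = 0.293, limma). Mafg, which encodes a small MAF partner, fell by 0.42 with H-P/C-HF (adjusted p = 0.000878, limma). Of 19 other glutathione transferases, 4 rose with H-P/C-HF and 6 with L-P/C-HF, among them the alpha class gene Gsta3, by 0.78 with H-P/C-HF (adjusted p = 0.00152, limma) and by 0.78 with L-P/C-HF (adjusted p = 0.00110, limma). Of 23 genes of glutathione synthesis, use and breakdown, 4 rose with H-P/C-HF and 3 with L-P/C-HF, including in both diets Gsr, which reduces oxidised glutathione, Gpx4 and Glo1. The shifts of RNA quality and cell markers lie in the same samples, and their part in these values was not tested.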

How the data were processed

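Per the labels, liver RNA of 48 mice was hybridised to 48 Affymetrix arrays. The authors made the deposited log2 values with Robust Multichip Average (RMA), whose version is not given in the sources used here, and the log base was read from the range (3.16 to 14.81). RMA equalises arrays, which hides a shift common to all genes. Of 45101 probe sets, 64 controls were left out. Platform annotation gave 1 symbol for 34945 probe sets, several for 932 and none for 9160. The brightest probe set stood for a gene in lists and correlations.

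Groups were compared with limma 3.58.1 (R 4.3.3) in a model with 1 coefficient per group, moderated with a trend, two-sided, with Benjamini-Hochberg adjustment within each of 6 comparisons, and the code was tested on simulated data. Replicates are separate mice, and their number limits the precision. Permutations used numpy 2.4.6.

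Members and the 20 other gene lists (214 of 249 entries measured) were chosen with earlier results of these data known. Named are all member probe sets, from each list genes that passed (up to 4 per comparison) and the 2 with the smallest p for the averaged diet, the regulators, and the genes most like Gsta2. Not every gene that this rule allows is printed. Alternatives were B25 included, A01, A09 and A24 left out, median centring, cyclic loess, probe sets of mean 6 or more, separate fits, no trend, the replicate block, array weights, an RNA quality covariate, an ordinary linear model, permutation over mice and averaging every probe set of a gene. Leaving out A09 alone was chosen after seeing the data. The Global Error Assessment of the study was not used.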

Additional observations from a re-analysis of the deposited data

Results flagged for a closer look

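The diet effect on Fmo5 (1450332_s_at) drew attention through the unadjusted p of the test of its difference between the durations, which did not pass the adjustment. The difference was -0.49 on the log2 scale for 4-wk less 2-d (p = 0.000792, adjusted p = 0.9999, limma). Over the alternatives it lay between -0.50 and -0.40, with an unadjusted p between 0.000174 and 0.0185.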

How the results depend on the processing

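The count of member probe sets that changed with diet, at either duration, on average or between the diet effects, was 0 under each alternative run. With H-P/C-HF, 5 changed with duration, and 2 with the RNA quality covariate. With L-P/C-HF, 3 changed, and 1 without A01, A09 and A24 (2670 of all 45037 probe sets), 5 with array weights (3656 of all) and 0 with the RNA quality covariate. Over all probe sets that covariate left 622 of 3012 calls in number with H-P/C-HF and 464 of 3096 with L-P/C-HF, while calls by diet on average numbered 23, 72 after cyclic loess and 90 with array weights, and at 2-d 6 and 23 after cyclic loess. Correlated pairs numbered 33, and 21 after cyclic loess, 1 within H-P/C-HF 2-d, 20 within L-P/C-HF 2-d, 24 within H-P/C-HF 4-wk and 2 within L-P/C-HF 4-wk mice. The cause of these shifts was not tested.

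Of 226 values per comparison over the alternatives, the sign turned in 18 for diet at 2-d, 9 at 4-wk, 19 on average, 6 between the diet effects, 2 for duration with H-P/C-HF and 10 with L-P/C-HF, and 1 of these, Srxn1 on 1425351_at, had an unadjusted p under 0.05 before. Those of the brightest probe sets by diet at 2-d or 4-wk were as follows, beside Gstm3 at 2-d, whose difference of 0.00 ran between -0.06 and 0.04. For diet at 2-d, Gstt1 was at -0.0182 without A09, and Srxn1 at 0.00164 without A01, A09 and A24 and at 0.0200 without A09. For diet at 4-wk, median centring put Gclm at 0.00583 and Nqo1 at 0.0125, Nqo1 was at 0.0171 after cyclic loess and 0.00882 with the RNA quality covariate, Gclc at -0.00167 without A01, A09 and A24 and -0.0173 with array weights, and Srxn1 at -0.0105 with array weights. For duration with L-P/C-HF, Srxn1 on 1425351_at was at -0.0307 with the RNA quality covariate.

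Arrays that share a replicate number did not deviate together (mean r -0.02 over 69 pairs, 0.00 for different numbers), so the numbers do not pair the mice. Fitted with the replicate block, 5 of 18 member probe sets changed with duration under H-P/C-HF (3831 of all 45037) and 4 under L-P/C-HF (3230 of all). With diet 0 changed (18 of all on average over both durations).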

Other observations

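Of 12 measured periportal genes, 11 had a positive diet difference over both durations (median 0.14), beside 45.9% of all genes. None of the 12 passed limma, where 4 were higher at an unadjusted p under 0.05. Of 14 measured pericentral genes, 8 had a positive difference and 6 a negative one (median 0.01), and 2 rose. They were Oat, which degrades ornithine, by 0.36 (adjusted p = 0.00571, limma) and Cyp7a1, the rate-limiting enzyme of bile acid synthesis, by 0.86 (adjusted p = 0.0342, limma, and 0.0916 with the replicate block). B25, which was not used, lay below the lowest of the other 11 H-P/C-HF 2-d arrays in 11 of 18 member probe sets. By diet over both durations, limma passed 0 of 10 hepatocyte, 0 of 5 cholangiocyte, 0 of 8 lymphocyte, 0 of 4 neutrophil, 0 of 3 erythroid, 0 of 3 adipocyte and 0 of 4 pancreatic acinar markers, where the unadjusted p was under 0.05 for 1 lymphocyte and 1 neutrophil marker that were lower and 1 acinar marker that was higher.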
